A study of Drosophila melanogaster with 20 samples.

Results

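Windows of the autosomal arms that are poor in both H3K27me3 and H3K27me2 are described here for larval salivary glands of Drosophila melanogaster. Windows were selected on the marks themselves, that is, chosen by a mean log2(ChIP/input) over SuUR mutants and wild type of −0.25 or less for H3K27me3 and −0.2 or less for H3K27me2. This rule found 1630 of the 19227 windows of arms 2L, 2R, 3L and 3R that have values for both marks (8.48%), and 27585 windows of the whole genome have such values. The values that chose these windows come from the same profiles, so the low level of both marks is a description of the choice and not a finding.

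The samples were salivary glands of 3rd instar larvae, either homozygous for the SuUR mutation or from the y,w strain, which served as wild type control. All flies were raised at 23 °C, and the controls carry the y and w mutations. An antibody from Cell Signaling Technology (#9733) was used for H3K27me3 and one from Millipore for H3K27me2, with 20 pairs of glands per the sample labels and 1 ChIP and 1 input library per genotype and mark. The labels do not give the sex of the larvae, and gland markers cannot be checked in ChIP profiles. There are 4 profiles and no replicates that can be told apart. No test was therefore made between SuUR mutants and wild type or between classes of windows, and all values are descriptions of these libraries. Depth and counting error are unknown, because the profiles hold ratios without read numbers. Each value covers 50 kb and windows are placed every 5 kb, so neighbouring windows share most of their sequence.

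H3K27me3 and H3K27me2 are both made by Polycomb repressive complex 2. In flies the trimethyl mark forms domains over Polycomb targets, whereas the dimethyl mark is spread broadly over silent and intergenic chromatin and is low where transcription is active. Methylation of H3K36 on transcribed genes hinders the enzyme, and a stretch poor in both marks is commonly active, gene-rich euchromatin. In polytene chromosomes such stretches usually replicate early. SUUR is a chromatin protein that slows replication forks in heterochromatin, and its loss lets regions that lag behind in wild type polytene chromosomes reach full copy number. No transcription data were used below, and replication and copy number enter only through a list of under-replicated regions from published studies. No genes are named, since no annotation of the dm3 assembly, in which all coordinates are given, was used here.

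The windows poor in both marks formed 355 domains that covered 19.9 Mb, or 20.7% of the 96.4 Mb covered by windows of these arms. A domain is a run of such windows at consecutive steps and is counted from the start of its first to the end of its last window. The median length was 60 kb (quartiles 50 and 75 kb), and the longest domain spanned 170 kb. In 119 domains only 1 window met the rule, and 158 domains measured 55 to 75 kb. The 37 domains over 100 kb held 593 of the 1630 windows, or 36.4%. Domains were thus many and short, while the few long ones held a large part of the windows.
Longer domains were also lower in both marks. The median of the domain means was −0.28 for H3K27me3 and −0.24 for H3K27me2 in domains of 1 window, against −0.40 and −0.42 in domains over 100 kb. Across the 355 domains, Pearson's r between length and mean level was −0.44 for H3K27me3 and −0.50 for H3K27me2. Domains of the same arm share libraries, and a lower level by itself lets a run stay under the limits for longer. Many domains lay close together. The centres of windows at facing edges of successive domains were 120 kb apart in the median (quartiles 17.5 and 325 kb), and 130 of 351 such gaps were 50 kb or less. Domains whose facing centres are less than 50 kb apart share sequence, so the 355 domains are not all distinct stretches. With such gaps of up to 25 kb bridged there were 245 domains with a median length of 75 kb.

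In SuUR mutants the H3K27me3 values of these windows ran from −0.67 to 0.12 with a median of −0.32, and in wild type they ran from −1.11 to −0.04 with a median of −0.39. Over all windows of the arms the H3K27me3 medians were −0.04 in SuUR mutants and −0.10 in wild type. H3K27me2 ran from −1.05 to 0.08 with a median of −0.35 in SuUR mutants, and from −1.49 to 0.06 with a median of −0.36 in wild type. Over all arm windows the H3K27me2 median was 0.01 in both genotypes (0.005 before rounding). The ranges of the genotypes overlapped in both marks. Expressed as ratios, the medians correspond to 0.804 times the input level in SuUR mutants and 0.763 times in wild type for H3K27me3, and to 0.785 and 0.779 times for H3K27me2.

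**Figure D1:**
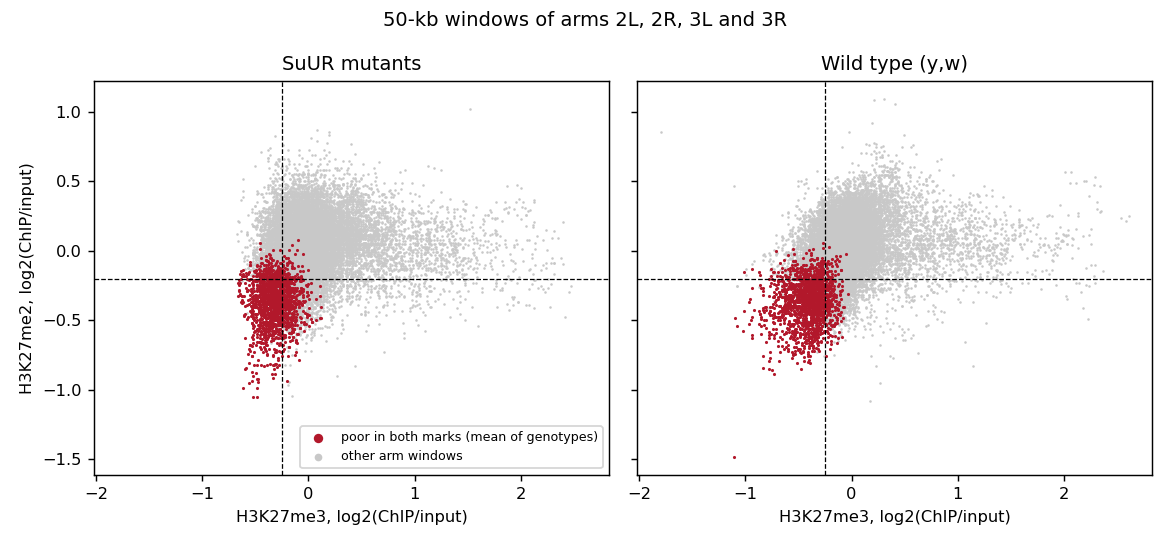
Each point is a 50-kb window of arms 2L, 2R, 3L and 3R, with H3K27me3 on the horizontal and H3K27me2 on the vertical axis, both as log2(ChIP/input), for SuUR mutants (left) and wild type (right). Red points are the 1630 windows poor in both marks by the mean of the genotypes, grey points are the other windows and dashed lines are the limits of −0.25 and −0.2; within a single genotype some red points lie beyond the limits.

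Since the rule uses means, a window need not be poor in every profile. All 4 profiles were at or under their limits in 717 of the 1630 windows (44.0%), 3 profiles in 702 (43.1%) and 2 profiles in 211 (12.9%). The profile that most often stood above its limit was H3K27me3 in SuUR mutants, which was at or under −0.25 in 1168 windows (71.7%). The corresponding count was 1417 (86.9%) for H3K27me3 in wild type. For H3K27me2, 1407 windows (86.3%) were at or under −0.2 in SuUR mutants and 1404 (86.1%) in wild type. Values of 0 or more were seen in 18 windows for H3K27me3 in SuUR mutants and in 0 windows for H3K27me3 in wild type. For H3K27me2 there were 8 such windows in SuUR mutants and 7 in wild type.
A large part of the windows stood near a limit. Among windows that met the other limit, those just inside the H3K27me3 limit had a mean of −0.25 and those just outside −0.2475, and the corresponding values at the H3K27me2 limit were −0.20 and −0.1975. Within 0.05 of the H3K27me3 limit there were 459 windows inside (28.2% of the windows poor in both marks) and 440 outside. For H3K27me2 there were 288 windows inside (17.7%) and 316 outside.

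The rule averages the genotypes, so windows chosen in a single genotype were read in the other, whose libraries had no part in that choice. In SuUR mutants 1378 arm windows (7.17%) were under both limits, and 717 of them (52.0%) were also under both limits in wild type, against 10.5% of all arm windows. In wild type 2023 arm windows (10.5%) were under both limits, and 717 of them (35.4%) were also under both limits in SuUR mutants, against 7.17% of all arm windows. Read in wild type, the windows chosen in SuUR mutants had a median of −0.33 in both H3K27me3 and H3K27me2. Read in SuUR mutants, the windows chosen in wild type had a median of −0.245 in H3K27me3, just above the limit, and −0.27 in H3K27me2. H3K27me3 was above 0 in the other genotype in 32 of the 1378 windows chosen in SuUR mutants (2.32%, against 33.7% of all arm windows in wild type) and in 180 of the 2023 chosen in wild type (8.90%, against 42.9% of all arm windows in SuUR mutants). Most windows chosen in wild type thus stood above a limit in SuUR mutants, while few in either direction had H3K27me3 above 0 in the other genotype. The same 717 windows are counted in both directions, so 52.0% and 35.4% differ only through the unequal numbers chosen. With quantile normalization redone over the 4 arms these shares were 46.5% and 39.6%, so most windows chosen in either genotype then stood above a limit in the other. The genotypes had been quantile normalized together, so their profiles are not wholly separate.
Low values of the marks occurred together. Of the 3256 arm windows with a mean H3K27me3 of −0.25 or less, 1630 (50.1%) also met the H3K27me2 limit, which 17.5% of all arm windows met. The marks were profiled from separate ChIP and input libraries, and the same was seen across genotypes. H3K27me2 in wild type was at or under its limit in 43.2% of the 3411 windows that met the H3K27me3 limit in SuUR mutants (20.6% of all arm windows). H3K27me2 in SuUR mutants was at or under its limit in 41.7% of the 4618 windows that met the H3K27me3 limit in wild type (20.7% of all arm windows).

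**Figure D2:**
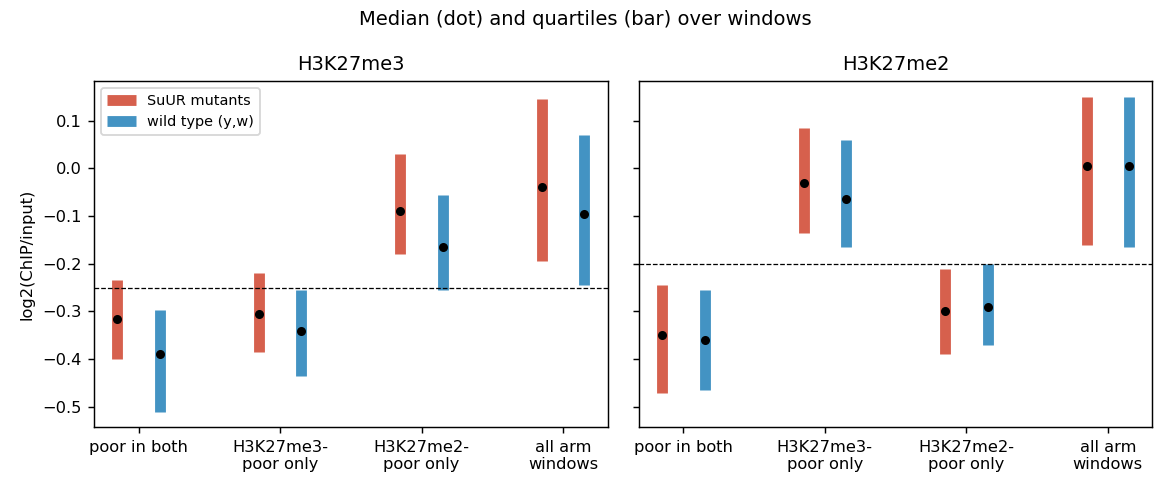
Dots are medians and bars span the quartiles of log2(ChIP/input) over windows, for H3K27me3 (left) and H3K27me2 (right), in SuUR mutants (red) and wild type (blue); dashed lines are the limits of the rule. Windows poor in both marks had a median of −0.32 in SuUR mutants and −0.39 in wild type for H3K27me3, and the windows poor in H3K27me2 only had −0.09 and −0.17.

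SuUR-sensitive regions (SSRs) are the stretches enriched in H3K27me3 in wild type that the study called as reduced in SuUR mutants, and SuUR-non-sensitive regions (SNRs) are H3K27me3 sites that were not called as reduced. Both lists were called on ChIP-chip profiles of salivary glands obtained with another antibody, and the list of under-replicated regions was combined from published studies of copy number. SSRs and SNRs were called as enriched in H3K27me3, so few windows poor in that mark can be met in them whenever the platforms rank regions alike. On the 4 arms there are 150 SSRs, 81 under-replicated regions and 130 SNRs.
Windows poor in both marks lay largely outside all of these. An SSR was overlapped by 97 of the 1630 windows (5.95%), against 35.5% of all arm windows. An under-replicated region was overlapped by 89 windows (5.46%), against 25.8% of all arm windows, and an SNR by 19 windows (1.17%), against 11.5%. The under-replicated regions and the SSRs are not separate lists. Windows touching both made up 1.47% of the windows poor in both marks and 20.0% of all arm windows. For windows touching an under-replicated region but no SSR the shares were much closer, at 3.99% (65 windows) and 5.79%. Any of the lists was touched by 180 windows (11.0%), against 48.8% of all arm windows. Most of these contacts were at borders. Only 23 windows (1.41%) had their centre inside an SSR, 33 (2.02%) inside an under-replicated region and 1 (0.0613%) inside an SNR. For all arm windows these shares were 27.8%, 21.9% and 5.67%. The median distance from the centre of a window to the nearest SSR was 199.6 kb, against 82.8 kb over all arm windows, and to the nearest under-replicated region 305 kb, against 215 kb.
The low share in SSRs was seen on each arm. It was 7.76% on 2L (42.3% of all windows of the arm), 5.15% on 2R (26.9%), 6.76% on 3L (36.6%) and 4.40% on 3R (35.4%). For under-replicated regions the share was 9.42% on 2L (34.98% of all windows of the arm), 2.21% on 2R (18.7%), 5.36% on 3L (21.6%) and 5.32% on 3R (27.4%). Counted by domain, 48 of 355 domains (13.5%) touched an SSR, 32 (9.01%) an under-replicated region and 12 (3.38%) an SNR. Other stretches of like length were not counted, so these domain shares have no background and cannot be set against the window shares.

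Windows poor in a single mark were compared with the same lists. The 1626 windows poor in H3K27me3 only had a median H3K27me3 of −0.31 in SuUR mutants and −0.34 in wild type, not far from that of windows poor in both marks. An SSR was nevertheless overlapped by 351 of them (21.6%) and an under-replicated region by 227 (14.0%), above the 5.95% and 5.46% of windows poor in both marks. SNRs were overlapped by 25 (1.54%), a share close to the 1.17% in windows poor in both marks. The 1743 windows poor in H3K27me2 only overlapped an SSR in 232 cases (13.3%), an under-replicated region in 215 (12.3%) and an SNR in 209 (12.0%). The last share stood near the 11.5% of all arm windows. Windows poor in both marks had the lowest share of the classes compared for each of the lists.

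**Figure D3:**
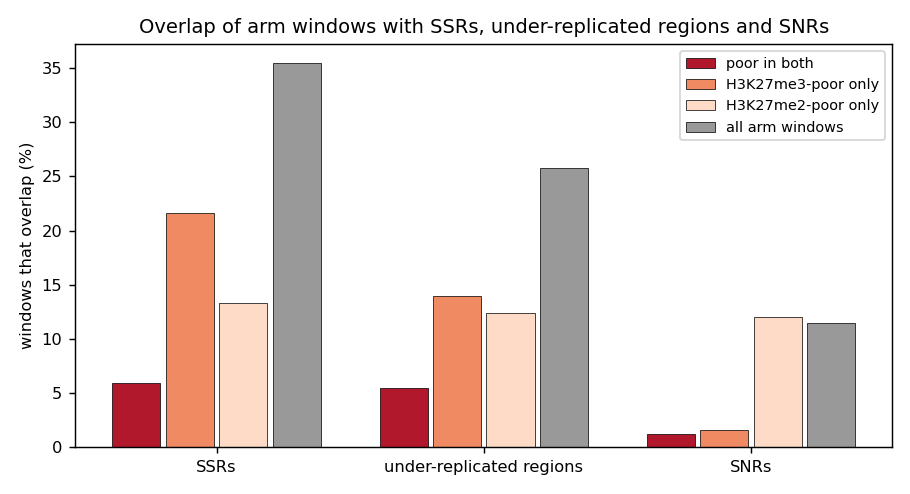
Bars give the percentage of arm windows that overlap an SSR, an under-replicated region or an SNR by at least 1 bp, for windows poor in both marks (red), in H3K27me3 only, in H3K27me2 only and for all arm windows (grey). Windows poor in both marks overlap the lists in 5.95%, 5.46% and 1.17% of cases, against 35.5%, 25.8% and 11.5% of all arm windows.

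Seen from the regions, 10 of the 150 SSRs held the centre of a window poor in both marks, with 4 such centres at most, and 83 SSRs (55.3%) had such a centre inside or within 100 kb. Of the 81 under-replicated regions, 10 held such a centre and 52 (64.2%) had one inside or within 100 kb. Of the 126 SNRs that hold any window centre, 1 held such a centre. Counted by window, however, the surroundings of these regions held fewer windows poor in both marks than the arms as a whole. The centre was inside or within 100 kb of an SSR for 31.2% of windows poor in both marks, against 53.5% of all arm windows, and inside or within 100 kb of an under-replicated region for 21.3%, against 36.6%. These shares include centres inside the regions, which were 1.41% against 27.8% for SSRs and 2.02% against 21.9% for under-replicated regions. They therefore do not show that the surroundings alone held few such windows.
The flanks of the domains give both marks and the overlap with the lists by distance from the domains. At 50 kb outward from the centre of an edge window, where windows share no sequence with the domain, the mean H3K27me3 was 0.00 in SuUR mutants (SD over 707 flanks 0.35) and −0.10 in wild type (SD 0.30). The mean H3K27me2 there was −0.05 in SuUR mutants (SD 0.23) and −0.06 in wild type (SD 0.22). The means over all arm windows were 0.04 and −0.04 for H3K27me3 and −0.01 in both genotypes for H3K27me2. Both marks therefore came close to the arm means within the length of 1 window. At this distance 9.76% of flanking windows again belonged to a domain poor in both marks, 8.63% were poor in H3K27me3 only, 12.2% in H3K27me2 only and 69.4% in neither. The share of flanking windows that overlap an SSR was 18.5% at 50 kb, 26.4% at 100 kb and 29.7% at 250 kb, still under the 35.5% of all arm windows. For under-replicated regions it was 10.9% at 50 kb, 15.3% at 100 kb and 24.3% at 250 kb, against 25.8% of all arm windows.

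**Figure D4:**
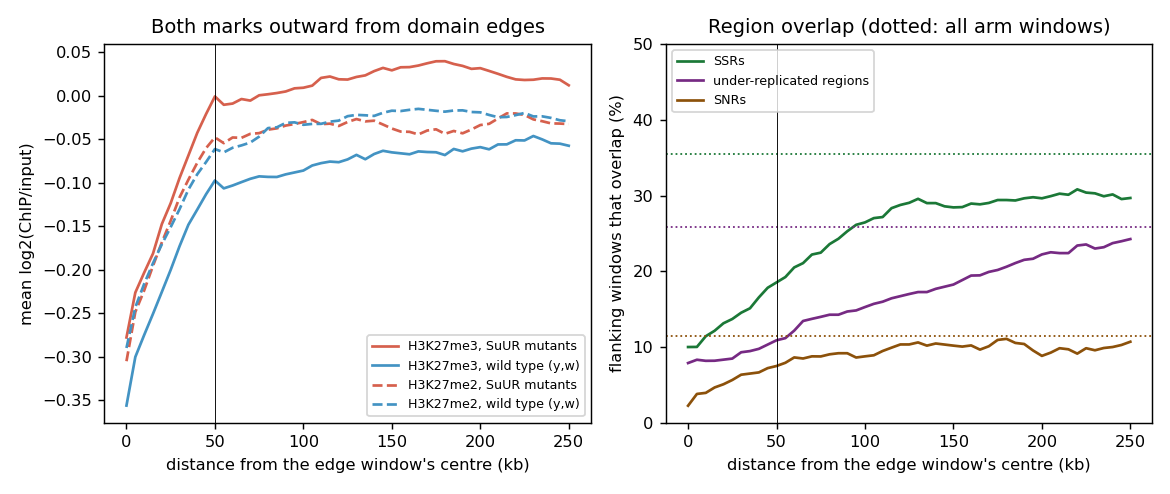
Left: mean log2(ChIP/input) of H3K27me3 (solid) and H3K27me2 (dashed) in SuUR mutants (red) and wild type (blue) against the distance in kb from the edge window of each of the 355 domains; windows beyond the vertical line at 50 kb share no sequence with the domain. Right: percentage of the same flanking windows that overlap an SSR, an under-replicated region or an SNR, with dotted lines for all arm windows; the SSR share is 18.5% at 50 kb and 29.7% at 250 kb.

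Windows poor in both marks made up 7.95% of the windows of 2L (361 windows in 85 domains), 9.67% of 2R (408 in 93), 8.76% of 3L (429 in 94) and 7.76% of 3R (432 in 83). With each arm divided into 5 equal parts, counted from the centromere side, the shares were 9.0%, 8.17%, 7.30%, 9.95% and 7.97% over the 4 arms together. The pooled shares show no steady trend, but single arms differed. On 2L the shares were 5.35%, 3.53%, 8.88%, 14.6% and 7.34%, and on 3R 12.0%, 6.64%, 6.10%, 8.53% and 5.48%. They ran from 7.11% to 10.8% on 2R and from 7.15% to 12.0% on 3L. At a finer scale the windows were uneven. Of 96 bins of 1 Mb, 6 held no such window and 9 had a share above 20%, with a median of 8.0%. The densest bin was on 2L, with 58 of 200 windows (29.0%) at centres from 7835000 to 8830000. It was followed by a bin on 3L at centres from 19515000 to 20510000 (49 of 197 windows, 24.9%) and by a bin on 3R at centres from 1025000 to 2020000 (48 of 200 windows, 24.0%).
The arm ends differed from each other. In the 1 Mb next to the centromere side, 0 of 200 windows met the rule on 2R, 0 of 200 on 3L and 2 of 200 on 2L (1.00%), whereas 26 of 200 did on 3R (13.0%). At the telomere side the share was 14.0% on 2L, 10.5% on 3L, 4.50% on 2R and 3.50% on 3R.
The longest stretch without any such window was 1.88 Mb on 2L, with centres from 13825000 to 15700000. Its median H3K27me3 was 0.09 in SuUR mutants and 0.07 in wild type, and 61.7% of its windows overlapped an SSR and 73.0% an under-replicated region. On 2R the longest stretch was at the centromere side, with centres from 25000 to 1885000. In it 19.8% of windows were poor in H3K27me3 but 0.536% in H3K27me2, whose median was 0.25 in SuUR mutants and 0.24 in wild type, and 82.6% of windows overlapped an SSR. On 3L it was again at the centromere side, with centres from 22890000 to 24510000, where 97.8% of windows overlapped an SSR and the median H3K27me3 was −0.22 in SuUR mutants and 0.30 in wild type. On 3R it lay at centres from 25890000 to 27420000, with 27.7% of windows overlapping an SSR and 40.7% an under-replicated region. Each of the 4 stretches had a positive median of H3K27me2 in both genotypes, but so did all arm windows (0.005 in both). The lowest of these medians were near that level, at 0.01 in SuUR mutants on 3R and 0.03 in wild type on 2L.
The same limits were met by 570 of 4448 windows of the X chromosome (12.8%), in 114 domains with a median length of 60 kb and a longest domain of 170 kb. The share of X windows under the H3K27me3 limit was 28.5%, against 15.6% to 20.7% on the autosomal arms, and under the H3K27me2 limit 19.7%, against 16.9% to 18.3%. Of the X windows under both limits, 5.26% overlapped an SSR (29.6% of all X windows).

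**Figure D5:**
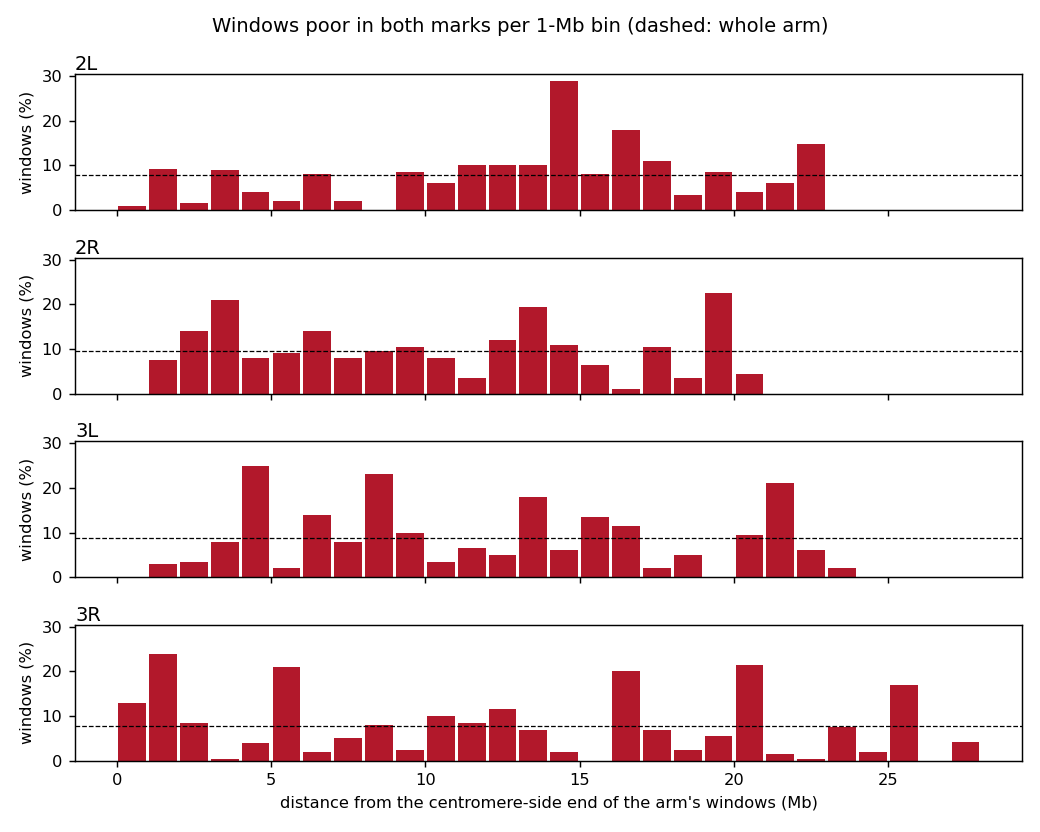
Bars give the percentage of windows poor in both marks in bins of 1 Mb along arms 2L, 2R, 3L and 3R, against the distance in Mb from the centromere-side end of the windows of the arm; dashed lines are the shares of whole arms. The bins next to the centromere side are empty on 2R and 3L and hold 1.00% on 2L and 13.0% on 3R, and the highest bar is 29.0% on 2L.

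The longest domain of all lay on 3L from 19775001 to 19945000 (170 kb, 25 windows). Its mean H3K27me3 was −0.47 in SuUR mutants and −0.46 in wild type, and its mean H3K27me2 was −0.56 in SuUR mutants and −0.48 in wild type. Single windows of this domain ranged from −0.65 to −0.02 (H3K27me3) and from −1.05 to −0.18 (H3K27me2) in SuUR mutants, and from −1.10 to −0.09 and from −0.67 to −0.16 in wild type. It touched no SSR, SNR or under-replicated region, and the nearest SSR was 403 kb from its middle.
The longest domain of 2R, from 3550001 to 3710000 (160 kb), was less deep in SuUR mutants for both marks. Its mean H3K27me3 was −0.36 in SuUR mutants and −0.52 in wild type, and H3K27me3 was higher in SuUR mutants in 21 of its 23 windows. Its mean H3K27me2 was −0.33 in SuUR mutants and −0.50 in wild type, with 23 of 23 windows higher in SuUR mutants. On 2L the longest domain began almost at the telomere-side end, from 35001 to 190000 (155 kb), with a mean H3K27me3 of −0.46 in SuUR mutants and −0.43 in wild type. Its mean H3K27me2 was −0.30 in SuUR mutants and −0.56 in wild type. On 3R the longest domain lay near the centromere side, from 1330001 to 1485000 (155 kb). Its mean H3K27me3 was −0.42 in SuUR mutants and −0.35 in wild type, and its mean H3K27me2 was −0.39 in SuUR mutants and −0.42 in wild type. A further domain of 155 kb on 3L, from 9325001 to 9480000, had a mean H3K27me3 of −0.26 in SuUR mutants and −0.62 in wild type, and 21 of its 22 windows were higher in SuUR mutants. Its mean H3K27me2 was −0.31 in SuUR mutants and −0.51 in wild type. It reached into an SSR by 1189 bp, while the longest domains of the arms touched none.
The lowest mean of both marks together was found in a domain of 2 windows on 2L from 15680001 to 15735000, which lay wholly inside an SSR. H3K27me3 was −0.53 in SuUR mutants and −0.93 in wild type, and H3K27me2 was −0.26 in SuUR mutants and −0.86 in wild type. In wild type its windows had H3K27me2 values of −1.49 and −0.23, although they overlap for all but a single step. The domain stands next to window positions that the profiles lack, and how many reads lie behind it is unknown.

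The genotype difference, SuUR mutants minus wild type, was not itself used to choose the windows, but it comes from the values whose mean the rule limited. In windows poor in both marks the median H3K27me3 difference was 0.08 (quartiles −0.06 and 0.24), against 0.075 over all arm windows (quartiles −0.08 and 0.24). H3K27me3 was higher in SuUR mutants in 64.1% of these windows, against 62.6% of all arm windows. A difference of at least 0.25 was taken as a change. H3K27me3 was at least 0.25 higher in SuUR mutants in 385 of the 1630 windows (23.6%), against a background of 23.9% of all arm windows. It was at least 0.25 lower in 77 windows (4.72%), against a background of 8.86%. The share higher in SuUR mutants was thus close to that of the arms, and the share lower was smaller. The rule limits the mean of the genotypes and so bears on differences in either direction. Its part in the smaller share lower was not tested. The share lower was 4.56% in X windows under both limits, 6.48% in arm windows poor in H3K27me2 only and 9.72% in those poor in H3K27me3 only.
More higher than lower values were also seen over all arm windows, and the size of this excess depended on the scaling. Under each scaling the share higher was close to that of all arm windows, and the share lower was smaller in windows poor in both marks. With quantile normalization redone over the 4 arms alone, the median difference was 0.01 in these windows and 0.01 over all arm windows. Then 245 windows (15.03%) were at least 0.25 higher in SuUR mutants and 175 (10.7%) lower, against 15.04% and 14.2% of all arm windows. With each profile centred on its median over the arms, 287 windows (17.6%) were higher and 141 (8.65%) lower, against 17.7% and 12.8% of all arm windows.
For H3K27me2 the median difference was 0.01 (quartiles −0.14 and 0.14), against 0.00 over all arm windows (quartiles −0.15 and 0.15). It was at least 0.25 higher in SuUR mutants in 179 windows (11.0%, background 12.9%) and at least 0.25 lower in 195 windows (12.0%, background 12.8%). Over all windows of the profiles, scaffolds included, the backgrounds were 21.7% higher and 16.7% lower for H3K27me3, and 15.4% higher and 15.3% lower for H3K27me2.
By domain, the mean H3K27me3 difference was above 0 in 214 of 355 domains (60.3%), with a median of 0.07 (SD over domains 0.21), and in 85 of the 122 domains of at least 5 windows (69.7%). The mean H3K27me2 difference was above 0 in 166 of 355 domains (46.8%), with a median of −0.01 (SD over domains 0.19). Like stretches elsewhere on the arms were not counted, so these domain counts and those that follow have no background of their own. Of all arm windows, 62.6% were higher in SuUR mutants for H3K27me3 and 49.2% for H3K27me2. The domain shares are therefore not read as particular to the domains. A change of at least 0.25 in both marks was seen in 7 domains that were higher and 3 that were lower in SuUR mutants, while 6 domains were higher in H3K27me3 and lower in H3K27me2 and 2 the reverse. In 115 domains (32.4%) the domain means of all 4 profiles were at or under their limits.

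Domains with the extreme differences were taken from the 122 domains of at least 5 windows. The highest H3K27me3 difference was found on 2R from 8010001 to 8105000, with −0.12 in SuUR mutants and −0.66 in wild type, a difference of 0.54. All 10 of its windows were higher in SuUR mutants, and 13409 bp of it lay in an SSR. On 3R from 6995001 to 7090000 the mean was −0.20 in SuUR mutants and −0.71 in wild type, and on 3L from 15100001 to 15185000 it was −0.07 in SuUR mutants and −0.56 in wild type. The domain on 3R overlapped an SSR by 8441 bp and an under-replicated region by 955 bp, and the domain on 3L lay over an under-replicated region for 60001 bp of its 85 kb. These domains met the rule through wild type, since their H3K27me3 in SuUR mutants was above the limit of −0.25.
At the other end, the domain on 3L from 12715001 to 12785000 had a mean H3K27me3 of −0.49 in SuUR mutants and −0.10 in wild type, a difference of −0.39. It was also low in H3K27me2 only in SuUR mutants, with −0.46 against −0.07 in wild type, and 4700 bp of it lay in an SNR. The domain on 3L from 15945001 to 16020000 had −0.44 in SuUR mutants and −0.19 in wild type for H3K27me3 and overlapped an SSR by 1749 bp. The domain on 2R from 14460001 to 14535000 had −0.42 in SuUR mutants and −0.17 in wild type for H3K27me3, while its H3K27me2 was −0.09 in SuUR mutants and −0.56 in wild type. Its marks thus differed between the genotypes in opposite directions, and its H3K27me2 difference of 0.47 was also the highest among the domains of at least 5 windows.
Next in H3K27me2 among these domains came 2R from 14010001 to 14090000, with −0.25 in SuUR mutants and −0.62 in wild type, and 3L from 20970001 to 21045000, with −0.24 in SuUR mutants and −0.54 in wild type. H3K27me2 was lower in SuUR mutants on 3R from 415001 to 515000, with −0.56 against −0.12 in wild type. It was also lower on 2L from 4415001 to 4490000, with −0.57 in SuUR mutants and −0.14 in wild type, and on 3L from 11030001 to 11130000, with −0.58 in SuUR mutants and −0.16 in wild type. With a single ChIP and a single input library listed for each profile, none of these differences can be separated from variation between libraries.

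The H3K27me3 difference was also read in the windows that touch the listed regions. The 89 windows that touch an under-replicated region had a median of −0.32 in SuUR mutants and −0.46 in wild type, a median difference of 0.14, and 78.7% of them were higher in SuUR mutants. They come from 33 runs of consecutive windows, of which 24 had a positive mean difference. In the 33 windows with their centre inside an under-replicated region the median difference was 0.08, with 63.6% higher in SuUR mutants, close to the values of all windows poor in both marks. The other 4870 windows that overlap an under-replicated region had a median difference of 0.04, with 54.4% higher in SuUR mutants. These sets differ in how many of their windows also touch an SSR. Among windows touching no SSR the median difference was 0.18 in the 65 poor in both marks and 0.09 in the other 1048. Among those touching an SSR as well it was 0.05 in 24 windows and 0.015 in the other 3822. The 97 windows that touch an SSR had a median H3K27me3 of −0.31 in SuUR mutants and −0.36 in wild type, a median difference of 0.07, and 30 of their 48 runs had a positive mean difference. The 23 windows centred within an SSR had a median of −0.34 in SuUR mutants and −0.31 in wild type, a median difference of −0.01, with 47.8% higher in SuUR mutants. The 19 windows that touch an SNR had a median of −0.30 in SuUR mutants and −0.44 in wild type, a median difference of 0.165. These groups are small and were not tested against each other. The other 6723 windows that overlap an SSR had a median difference of 0.02. H3K27me2 in the 89 windows at under-replicated regions did not show the same direction, with a median of −0.31 in SuUR mutants and −0.30 in wild type.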

How the data were processed

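ChIP-seq of larval salivary glands was used, 8 libraries that give 4 profiles; the 12 embryo libraries were not analysed here. Read pairs were mapped by the authors with MOSAIK on the dm3 assembly and scaled to RPM in ChIP and input, and the deposited values are log2(ChIP/input) in 50-kb windows at 5-kb steps, quantile normalized between the genotypes (their sorted values differed by 0). A change common to all windows is therefore removed from the comparison of genotypes. Whether replicates were pooled is not stated, and depth is unknown. Reads with several matching positions were kept by the mapping settings, which bears on repeats.

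A listed position was taken as the centre of its window, because positions begin at 25000 on each chromosome. Profiles were joined on chromosome and position, and 3 arm windows with values for only 1 mark were left out. SSRs, SNRs and under-replicated regions came from the study's coordinate tables, and an overlap of 1 bp counted. Named regions were the longest domains (overall and per arm), the 3 highest and 3 lowest differences in each mark among domains of at least 5 windows, the lowest domain, and the longest stretch of each arm without a member. The rule and these lists were chosen with earlier results of these data known. Domain calling and overlaps were tested on simulated data. Limits, averaging, normalization, centring, arm ends, arms, overlap definitions and difference limits were varied. Python 3.11.15, numpy 2.4.6, pandas 2.3.3, scipy 1.17.1 and matplotlib 3.10.9 were used.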

Additional observations from a re-analysis of the deposited data

How the results depend on the processing

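No paired analysis was possible because each profile has 1 ChIP and 1 input library. The number of windows and domains follows the limits. With both limits 0.1 lower, 2.86% of arm windows in 137 domains met the rule, and with both 0.1 higher 19.2% in 580 domains. With each genotype under the limits on its own they were 3.73% in 211 domains, and with every 10th window 127 domains were found. The share of windows overlapping an SSR was 2.37%, 9.47%, 3.63% and 3.85% under these alternatives, all below the 35.5% of all arm windows. With the window centre or 25 kb of the window required inside a region, it was 1.41% for SSRs in both cases (27.8% of all arm windows in both) and 2.02% for under-replicated regions in both. For SNRs it was 0.0613% by centre and 0% by 25 kb.

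Of the windows poor in wild type, 25.03% were also poor in SuUR mutants with both limits 0.1 lower and 45.6% with both 0.1 higher. The share was 39.6% with quantile normalization redone over the 4 arms and 33.8% with centred profiles. Of those poor in SuUR mutants, 43.4% and 60.8% were also poor in wild type under these limits, 46.5% with quantile normalization redone over the 4 arms and 38.9% with centred profiles. The share of H3K27me3-poor windows that were also H3K27me2-poor was 44.2% with both limits lower, 56.6% with both higher and 59.1% with centred profiles. The median H3K27me3 difference lay between 0.01 and 0.115 and the H3K27me2 difference between 0.005 and 0.02 over 13 alternatives. Leaving out windows within 50 kb of missing windows, chosen after seeing the data, removed 4 of the 1630 windows, with the lowest domain among them. Shares of windows past a difference limit moved with that limit of 0.15 or 0.35, in both marks. Depth is unknown and a single library pair is listed for each profile, so the precision of single windows cannot be given.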
